A study of Mus musculus with 9 samples.

Results

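Of 18085 genes tested, 3736 were higher in every library of fibroblasts reprogrammed toward GABAergic interneurons (iGABA) than in all 6 libraries of the 2 cell types they were set against, and 2861 were lower in every iGABA library than in all 6. These 6597 genes lie outside both the state the cells came from and the state they were meant to reach, and they are the subject here. They were found by ordering the 9 libraries for each gene by CPM, which is a gene's count over the library's total, rescaled between libraries by TMM, and keeping genes with all 3 iGABA libraries at 1 end of the order. Because the members were chosen on these CPM, their levels and their differences from the other groups are a description and carry no test. The 3 MEF libraries came from primary fibroblasts of C57BL/6 embryos at E13.5, at passage P0, detached with trypsin and not sorted. Their labels mention fibroblast medium and a later neuronal inducing medium without saying which preceded RNA extraction. The 3 iGABA libraries came from P0 MEFs of the same strain after 14 days in vitro, 2 of them in fibroblast medium and the rest in neuronal medium, sorted for GFP. What GFP marks in the iGABA cells is not stated in the sources used here. The study is known to have delivered transcription factors, Sox2, Dlx5 and Lhx6 among them, and the counts of these genes do not separate delivered copies from the cell's own. The 3 GAD67 libraries came from interneurons of the C57BL/6 cortex at E18.5, primary cells sorted for GFP, which in these cells marks expression of GAD67, an enzyme that makes GABA. The labels do not say whether libraries of a group are separate cultures or animals, so the spread between them may be technical, and medium and sorting cannot be told apart from cell state.

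Direct reprogramming forces a differentiated cell toward another fate with transcription factors and without passing through a stem cell. Sox2 belongs to neural progenitors, and Dlx5 and Lhx6 act in the ventral forebrain where cortical interneurons are born. The order of libraries used here shows for which genes the converted cells lay at neither end level nor between them.

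Libraries held 27501521 to 38975523 counts. The genes of the mitochondrial genome took 3.998% to 4.36% of counts in iGABA libraries, against 0.908% to 1.07% in MEF and 1.16% to 1.40% in GAD67. Fibroblast and matrix transcripts, 44 genes, summed to 132000.0 to 146000.0 CPM in MEF, 2620.0 to 3220.0 in iGABA and 1150.0 to 1230.0 in GAD67 libraries, highest in the libraries labelled MEF. Gad1, which the GFP sort selects in GAD67 cells, was at 0.544 ± 0.0712 CPM in MEF, 405 ± 8.2 in iGABA and 745 ± 25.2 in GAD67 (SD, n = 3, as in all such values below). Whether the GFP sort of the iGABA cells selects Gad1 as well is not known. In bulk samples, fewer cells of a type and less RNA per cell cannot be told apart.

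The equal-weight contrast of iGABA with the mean of the other groups called 7303 genes higher (40.4% of those tested) and 6481 lower (35.8%) at an edgeR adjusted p under 0.05. Of these, 3572 of the higher and 3623 of the lower were not outside, because iGABA lay between the other groups or overlapped one of them. Genes above all 6 libraries were 20.7% of those tested, and genes below all 6 were 15.8%. Read by both pairwise edgeR contrasts instead, iGABA was called above both groups for 3539 genes (19.6%) and below both for 2735 (15.1%). Both pairwise contrasts share the iGABA libraries. The order and the calls use the same counts, so neither supports the other, and 3492 of the genes above and 2638 of those below met both. The other groups stood apart from the remaining libraries more often: MEF libraries lay above their 6 others for 5682 genes and below for 5403, and GAD67 libraries for 5464 and 5225. The scale matters for the balance of directions. Genes above made up 56.6% of those outside with TMM scaling and 75.2% when libraries were scaled by size alone, where 5285 genes were above, all 3736 among them, and 1742 below. Of the mean-contrast calls 53% were higher with TMM and 68.6% by library size, and of the calls against both groups 56.4% and 75%. Library-size scaling moved the median log2 difference of all tested genes from 0.03 to 0.33, so directions of small differences are relative to TMM.

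**Figure D1:**
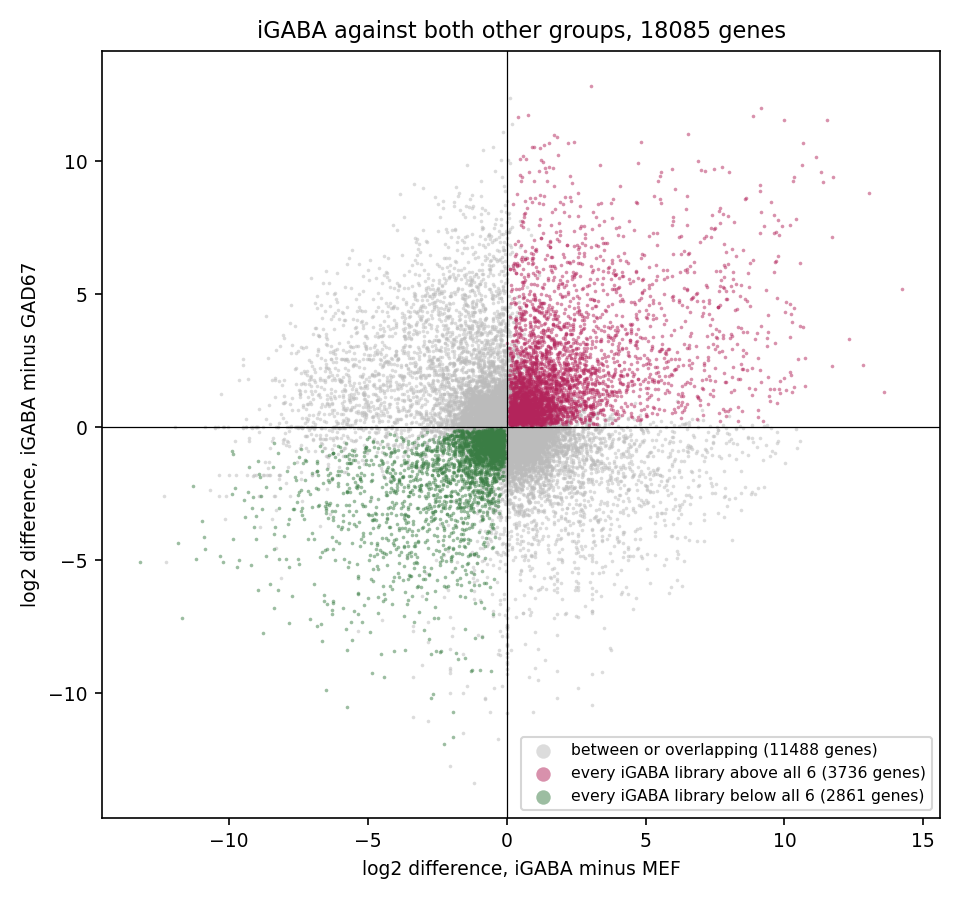
Each of 18085 genes is a point, with its log2 difference between iGABA and MEF on the x axis and between iGABA and GAD67 on the y axis. The 3736 genes above all 6 libraries lie in the upper right and the 2861 below in the lower left, while grey genes lie between the other groups or overlap one of them.

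Many of these genes stood only slightly outside. The gap is the ratio of the lowest iGABA library to the highest other library, with 0.1 CPM added to each, or the inverse for genes below. Its median was 1.52 times above and 1.33 times below. A gap of at least 2 times was present for 1234 genes above and 636 below, of at least 4 times for 513 and 218, and of at least 16 times for 122 and 22. At least 64 times was reached by 25 genes above and by 0 below. The border is thin: Zfp334, just inside, had its lowest iGABA library at 104.7 CPM and its highest other library, of GAD67, at 104.6, whereas Hps4, just outside, had iGABA libraries at 51.1213, 56.8 and 54.1 CPM against 51.1344 in the highest MEF library. Below, Orc3 was just inside, with 48.1040 CPM in the highest iGABA library and 48.1203 in the lowest MEF library, and Clip2 was just outside at 91.4 against 91.3. Between themselves, GAD67 was called by edgeR higher than MEF for 36.6% of genes above and lower for 38.8%, and for 39.6% and 39.9% of genes below. Genes above that are low in both other groups entered the test through iGABA, so these shares carry no comparison with other genes.

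The genes farthest above were nearly silent in both fibroblasts and interneurons and are known from many tissues. They were the 15 with the widest gap among genes with a mean of at least 10 CPM in iGABA: Pkd2l1, Gsx1, Prlhr, Ntsr2, Tmem211, Cidea, Gjb1, Mobp, Svopl, Myh7b, Pax7, Kif19a, the pseudogene Cyp21a2-ps, Slc9a3 and Grb7. Across the 15, iGABA libraries ran from 16.6 to 571 CPM, MEF libraries from 0 to 2.71 and GAD67 libraries from 0 to 0.848. Genes so low in MEF and GAD67 passed the filter on low counts through iGABA.

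Pkd2l1 (ENSMUSG00000037578, mm10 chromosome 19, 44147637 to 44192442) encodes a cation channel that marks neurons contacting the cerebrospinal fluid in the spinal canal and acid-sensing taste cells. Its level was 0.0732, 0.329 and 0.302 CPM in MEF, 553, 524 and 571 CPM in iGABA and 0.281, 0.848 and 0.311 CPM in GAD67. All iGABA libraries were far above the rest, with a gap of 553 times, and the log2 difference was 11.13 ± 0.21 (SE) from MEF and 10.15 ± 0.19 from GAD67. Gsx1 (ENSMUSG00000053129, chromosome 5, 147188696 to 147190947), a homeobox factor of ventral forebrain and dorsal spinal progenitors, was at 0.11, 0.0987 and 0.0302 CPM in MEF, 123, 138 and 122 CPM in iGABA and 0.128, 0.238 and 0.0282 CPM in GAD67. All iGABA libraries were far above the other 6, and the gap was 360.3 times. Cyp21a2-ps is a pseudogene of a steroid hydroxylase gene, and reads of the 2 near-identical copies could have been split, so its 57.7 ± 4.9 CPM in iGABA is uncertain.

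Both Prlhr, the receptor of prolactin-releasing peptide, and Ntsr2, a low-affinity receptor of neurotensin found in astrocytes and neurons, are neuropeptide receptors. Prlhr (ENSMUSG00000045052, chromosome 19, 60466733 to 60468304) was at 0, 0.0329 and 0.0302 CPM in MEF, 86.3, 86.9 and 88.8 CPM in iGABA and 0.128, 0.185 and 0.0565 CPM in GAD67. Ntsr2 (ENSMUSG00000020591, chromosome 12, 16653470 to 16660236) was at 0, 0 and 0.0302 CPM in MEF, 123, 123 and 122 CPM in iGABA and 0.255, 0.424 and 0.113 CPM in GAD67. The 3 iGABA libraries of each gene lay close together, with an SD of 1.30 CPM for Prlhr and 0.268 for Ntsr2, and MEF held 2 and 1 counts of them in all. GAD67 held 14 and 30.

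A myelin gene, a gap-junction gene and a regulator of fat droplets followed. Mobp, a protein of compact myelin made by oligodendrocytes, was at 0, 0.0329 and 0.0302 CPM in MEF, 31.9, 37.2 and 29.9 CPM in iGABA and 0.0255, 0.0795 and 0.0282 CPM in GAD67. Gjb1, the connexin of Schwann cells and oligodendrocytes, was at 0, 0 and 0.0302 CPM in MEF, 39.2, 41.6 and 36.3 CPM in iGABA and 0.0511, 0.106 and 0.0282 CPM in GAD67. Cidea, which sits on lipid droplets and is a marker of brown fat, was at 0.0732, 0 and 0 CPM in MEF, 67.6, 65.2 and 63.7 CPM in iGABA and 0, 0.238 and 0 CPM in GAD67. Over its 3 libraries MEF held 2, 1 and 2 counts of these genes and GAD67 held 5, 7 and 9. Pax7, a factor of muscle stem cells and of the dorsal neural tube, was at 0.0366, 0 and 0 CPM in MEF, 16.9, 22.3 and 16.6 CPM in iGABA and 0.0511, 0.0265 and 0 CPM in GAD67. Myh7b, a slow myosin that also hosts a microRNA, had more signal elsewhere, with 2.71, 1.87 and 2.42 CPM in MEF, 322, 317 and 337 CPM in iGABA and 0.204, 0.689 and 0.339 CPM in GAD67. Of the others, Slc9a3, an epithelial sodium-proton exchanger, was at 0.178 ± 0.156 CPM in MEF, 39.9 ± 3.66 in iGABA and 0.15 ± 0.0794 in GAD67. Kif19a, a kinesin of cilia tips, was at 0.31 ± 0.0332 CPM in MEF, 52.9 ± 8.01 in iGABA and 0.203 ± 0.0577 in GAD67. Grb7, an adaptor of growth factor receptors, was at 0.0857 ± 0.06 CPM in MEF, 23.4 ± 1.45 in iGABA and 0.0265 ± 0.0459 in GAD67.

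**Figure D2:**
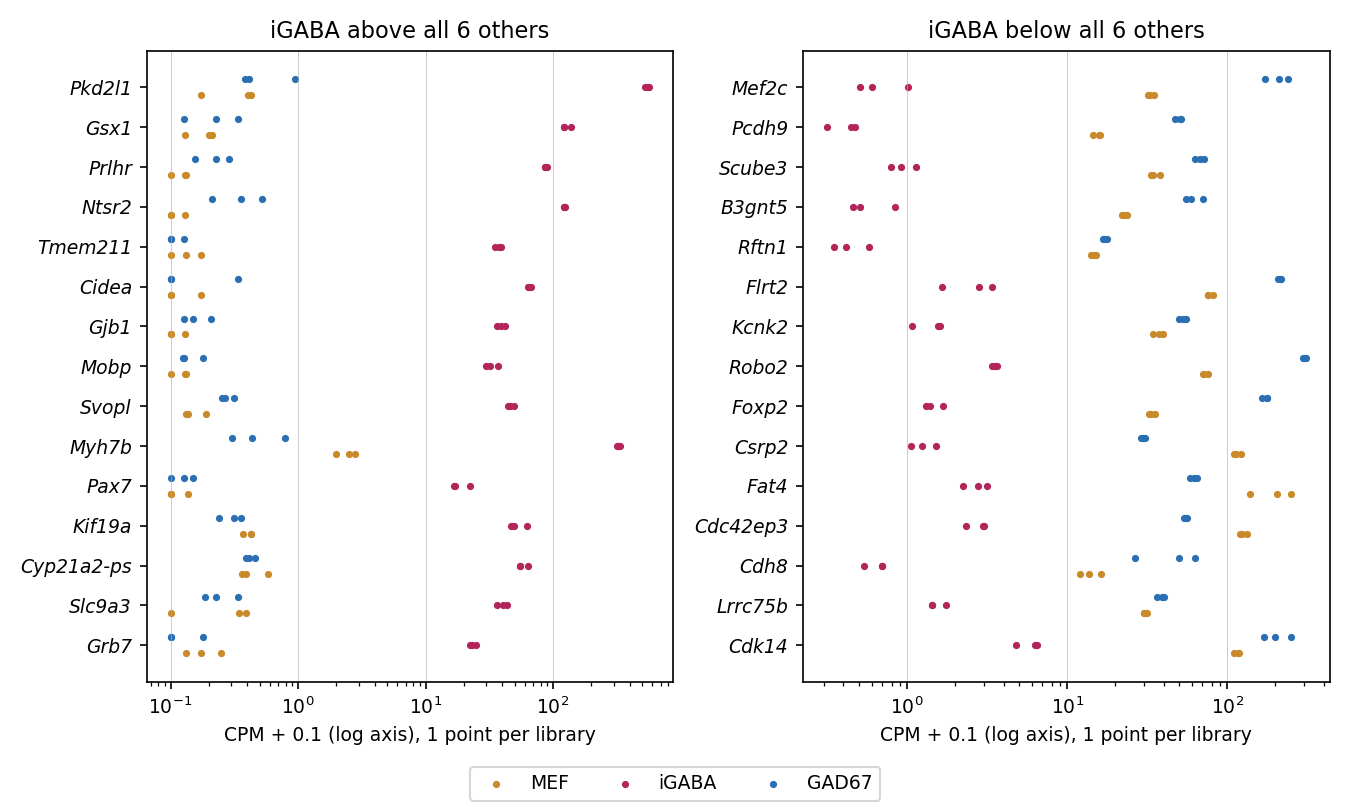
CPM plus 0.1 on a log axis for the 15 genes with the widest gap above (left) and the 15 below (right), 1 point per library, coloured by group. On the left the iGABA points lie between 16.6 and 571 CPM and all others at 2.71 or less, and on the right the iGABA points lie between 0.215 and 6.41 CPM and all others at 11.8 or more.

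By detection, 17 genes had at least 1 CPM in every iGABA library and at most 3 counts in all over the 6 others, and 5 of these had 0 counts in all 6. In order of level in iGABA they began with Cox8b, a muscle and brown fat isoform of a cytochrome oxidase subunit, Il10, an anti-inflammatory cytokine, Dbx1, a homeobox factor of ventral spinal and brain progenitors, Gsta2, a glutathione transferase, Tspan10, Foxn4, a factor of retinal and spinal progenitors, Ccer2, Pvalb, Adgrd2-ps and Mrap2. Cox8b was at 0, 0.0658 and 0 CPM in MEF, 14.4, 11.2 and 18.7 CPM in iGABA and 0 CPM in all 3 GAD67 libraries. Il10 was at 0, 0.0658 and 0 CPM in MEF, 12.1, 11.9 and 12 CPM in iGABA and 0 CPM in all 3 GAD67 libraries. Dbx1 was at 0 CPM in all 3 MEF libraries, 10.5, 12.8 and 8.57 CPM in iGABA and 0 CPM in all 3 GAD67 libraries. Against the 3 counts over a group that 0 allows, it was at least 326-fold higher than MEF and at least 404-fold higher than GAD67. These floors cover counting error only. Pvalb, the calcium buffer of a cortical interneuron class that turns it on after birth, was at 2.47, 4.97 and 1.91 CPM in iGABA, with 1 count over the MEF libraries and 0 over the GAD67 libraries of embryonic cortex. In the reverse direction 6 genes had at least 1 CPM in each of the 6 others and at most 3 counts over iGABA: Kcns3 and Kcne1l, subunits that modify potassium channels, Fxyd7, a modulator of the sodium pump in brain, Bhlhe22, a factor of spinal, retinal and cortical neurons, Otor and a gene without a symbol. Bhlhe22 held 268 counts over MEF, 867 over GAD67 and 3 over iGABA.

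The median promoter window of genes far above held fewer CpG dinucleotides than that of all tested genes. RefSeq promoter windows of build GRCm38.p6, which run from 250 bases before to 50 after a gene's start, matched 12007 tested genes with 15342 windows. The median window held 19 CpG over all tested genes, 18 over genes above, 14 in 427 windows of genes above with a gap of at least 4 times and 13 in 99 windows with a gap of at least 16 times. Genes below had a median of 21, and 18 with a gap of at least 4 times. Genes far above that are low in both other groups entered the test through iGABA, and a gene can have several windows. Medians for genes outside in MEF or GAD67 libraries were not taken. The part of this entry and of expression level in these medians was not tested. Median G and C content differed less, at 60.3% over all, 60% and 59% for the sets above at those gaps. Windows of Ntsr2 and Mobp, with 5 CpG each, and of Rftn1, a raft protein among the genes farthest below, with 30, are examples. They do not span the range, and capitals mark each CpG.
Ntsr2 (chr12:16653220-16653519, plus strand): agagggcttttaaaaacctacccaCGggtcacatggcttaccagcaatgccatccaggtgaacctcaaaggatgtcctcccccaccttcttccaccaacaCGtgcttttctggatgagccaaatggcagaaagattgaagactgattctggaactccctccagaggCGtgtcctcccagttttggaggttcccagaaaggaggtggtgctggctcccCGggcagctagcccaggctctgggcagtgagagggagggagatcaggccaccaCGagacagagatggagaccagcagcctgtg
Mobp (chr9:120149492-120149791, plus strand): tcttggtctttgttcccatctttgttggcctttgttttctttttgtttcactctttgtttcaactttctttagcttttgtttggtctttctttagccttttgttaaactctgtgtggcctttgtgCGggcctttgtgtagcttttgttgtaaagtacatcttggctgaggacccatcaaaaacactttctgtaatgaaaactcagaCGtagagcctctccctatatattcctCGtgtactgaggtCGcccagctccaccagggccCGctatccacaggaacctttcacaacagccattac
Rftn1 (chr17:50190448-50190747, minus strand): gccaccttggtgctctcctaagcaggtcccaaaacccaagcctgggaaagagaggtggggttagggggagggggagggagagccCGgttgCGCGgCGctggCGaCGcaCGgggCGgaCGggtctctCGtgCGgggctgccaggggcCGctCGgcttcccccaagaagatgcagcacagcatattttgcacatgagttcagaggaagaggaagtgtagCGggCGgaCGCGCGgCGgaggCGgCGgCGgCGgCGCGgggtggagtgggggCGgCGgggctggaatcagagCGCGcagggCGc
Single genes varied in both directions: the window of Slc9a3 held 25 and that of Gsx1 19, while the 3 windows of Mef2c, far below, held 1, 10 and 4.

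Among delivered factors, Sox2 was outside, above, whereas Dlx5 and Lhx6 lay between the end states. Sox2 was at 0.988, 1.38 and 1.03 CPM in MEF, 1015, 1148 and 969 CPM in iGABA and 415, 415 and 442 CPM in GAD67. The groups did not overlap, with a log2 difference from GAD67 of 1.30 ± 0.08 (SE). Dlx5 was at 1.87 ± 0.111 CPM in MEF, 59.1 ± 0.611 in iGABA and 215 ± 18.8 in GAD67. Lhx6 was at 0.595 ± 0.158 CPM in MEF, 75.5 ± 6.83 in iGABA and 464 ± 18.7 in GAD67. Both were above MEF and below GAD67, with edgeR log2 differences from GAD67 of -1.86 (adjusted p = 1.6e-11) and -2.62 (adjusted p = 2.8e-12). Delivered and endogenous copies of the 3 genes cannot be told apart in these counts.

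Notch signalling lets a cell with proneural factors hold back its neighbours: Delta-like ligands on that cell activate Notch receptors on the next, which turn on Hes repressors, and Fringe enzymes tune the receptors. Of 40 tested genes of the proneural and Notch list, 14 were above all 6 libraries (35.0%) and 0 below. Among the ligands, Dll1 was at 2.89, 1.81 and 2.2 CPM in MEF, 392, 398 and 394 CPM in iGABA and 44.4, 39.8 and 51.9 CPM in GAD67. Dll3, a ligand that acts inside the cell, was at 0.146, 0.132 and 0.181 CPM in MEF, 104, 104 and 111 CPM in iGABA and 9.47, 8.99 and 8.36 CPM in GAD67. Dll4 was at 0.28 ± 0.0855 CPM in MEF, 19.7 ± 1.89 in iGABA and 2.73 ± 0.204 in GAD67. Every iGABA library of the 3 ligands was above every GAD67 library, and every GAD67 library was above every MEF library. The modifier Lfng, at 9.03 ± 0.33 CPM in MEF, 37.5 ± 2.12 in iGABA and 1.91 ± 0.255 in GAD67, had the reverse order in the other groups, with GAD67 below MEF by a log2 difference of -2.24 ± 0.11 (edgeR adjusted p = 4.58e-10). The remaining members above were Btg2, Gadd45g, Hes5, Hes6, Hey1, Id2, Insm1, Jag2, Mfng and Notch1. The list summed to 3330.0 to 3420.0 CPM in iGABA, between 1570.0 to 1610.0 in MEF and 6270.0 to 6310.0 in GAD67, so the position outside belongs to members and not to the list's total. Proneural basic helix-loop-helix factors bind E-boxes such as CAGCTG, a palindrome that reads the same on both strands. That motif was in 16% of the windows of all tested genes and in 17.7% of windows of genes above, 18.3% and 16.2% of those with gaps of at least 4 and 16 times, 15.2% of genes below and 20.8% of genes below with a gap of at least 4 times. One was present in 1 of 2 windows of Dll1 and in that of Dll3, shown with the motif in capitals, and not in that of Dll4.
Dll1 (chr17:15376883-15377182, minus strand): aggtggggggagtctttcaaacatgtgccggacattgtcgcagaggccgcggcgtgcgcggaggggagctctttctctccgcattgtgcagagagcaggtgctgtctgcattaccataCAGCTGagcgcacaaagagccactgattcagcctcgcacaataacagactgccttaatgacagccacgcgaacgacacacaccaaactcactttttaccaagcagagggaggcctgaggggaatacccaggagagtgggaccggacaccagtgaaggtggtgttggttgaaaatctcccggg
Dll3 (chr7:28301736-28302035, minus strand): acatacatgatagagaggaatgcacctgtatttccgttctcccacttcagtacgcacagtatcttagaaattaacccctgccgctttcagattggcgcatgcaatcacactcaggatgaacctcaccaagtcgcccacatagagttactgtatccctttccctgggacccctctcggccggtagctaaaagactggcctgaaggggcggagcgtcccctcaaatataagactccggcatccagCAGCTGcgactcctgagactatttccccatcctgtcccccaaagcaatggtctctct
A match is a run of letters and not evidence of binding. The motif TAATTA, read on both strands by homeodomain factors, was in 2.89% of all windows and 2.81% of those of genes above. ACAAAG or its reverse complement, part of the Sox motif, was in 14.0% and 12.9%.

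Hox genes give cells their position along the trunk and limbs and are off in the forebrain. Of 37 tested, 21 were above all 6 libraries (56.8%) and 0 below, and 25 were above with library-size scaling. GAD67 libraries summed to 0.79 to 1.99 CPM over the 37, MEF to 579 to 597 and iGABA to 740.0 to 789, so for these genes the place above rests on the difference from MEF. Hoxb7 was at 16.7, 15.8 and 17.4 CPM in MEF, 55.7, 60.3 and 57.9 CPM in iGABA and 0.0255, 0.053 and 0 CPM in GAD67. Hoxb6 was at 6.79 ± 0.339 CPM in MEF, 36.3 ± 2.54 in iGABA and 0.0173 ± 0.015 in GAD67. Hoxb5 was at 3.21 ± 0.106 CPM in MEF, 26.1 ± 0.517 in iGABA and 0 ± 0 in GAD67. Hoxa4 was at 0.926 ± 0.159 CPM in MEF, 5.51 ± 0.214 in iGABA and 0.00851 ± 0.0147 in GAD67. Log2 differences from MEF of these 4 genes were 1.80, 2.42, 3.02 and 2.56. By position within the clusters, a split made after the values were seen, 19 of 25 genes numbered 1 to 9 were above and 4 were called below MEF by edgeR, whereas of 12 genes numbered 10 to 13, which pattern the hind body and the limb ends, 2 were above and 7 were called below MEF. The median log2 difference from MEF was 1.20 for the first set and -1.19 for the second. In cluster B 8 of 9 genes were above, in cluster D 2 of 8.

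**Figure D3:**
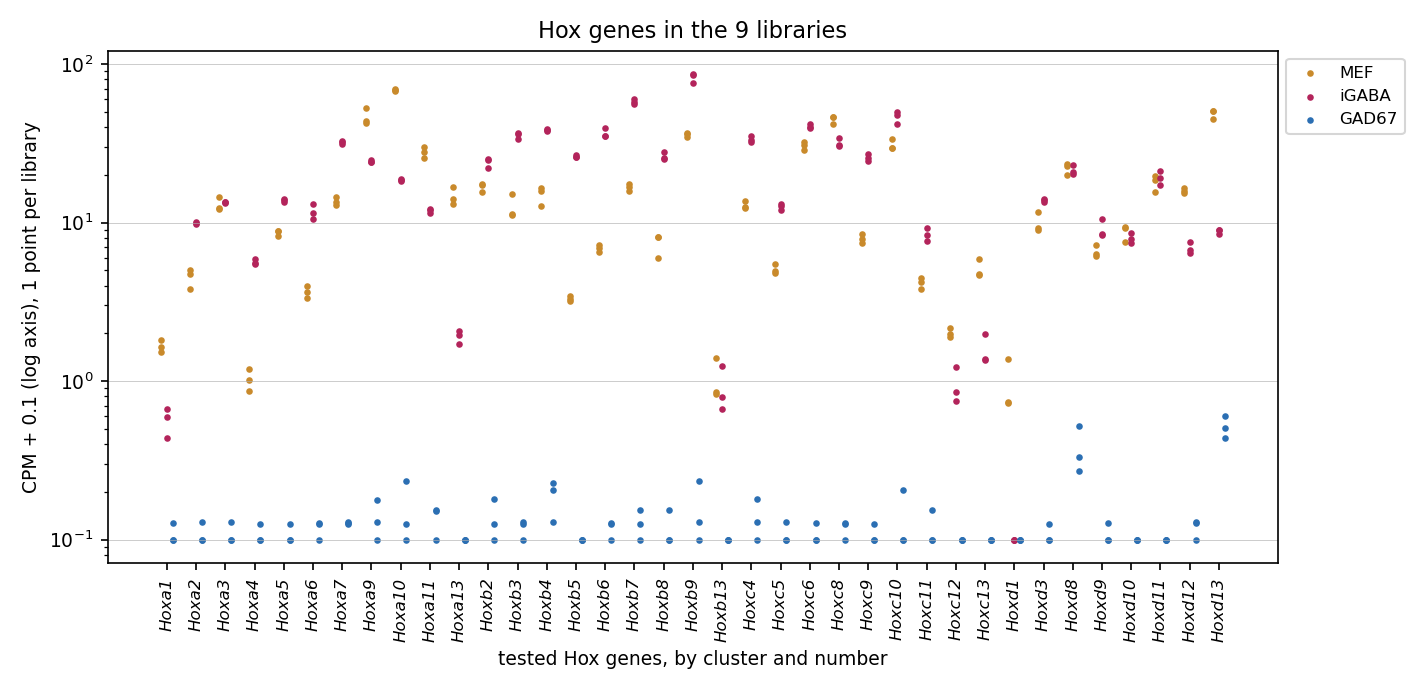
CPM plus 0.1 on a log axis for the 37 tested Hox genes, ordered by cluster and number, 1 point per library. iGABA points lie above the MEF points for most genes of number 1 to 9, 8 of 9 in cluster B, and GAD67 points stay at the foot of the plot.

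Homeobox and other factors of spinal and hindbrain neurons were partly on. Of 52 listed, 27 were tested, of which 11 were above (40.7%) and 3 below. With a stricter filter on low counts 8 were above and 3 below. Members near 0 in both other groups, such as Dbx1 and Pax7, were tested through iGABA, which favours the share above. The median log2 difference of the 27 was -0.94 from MEF and 4.37 from GAD67. Besides Pax7 and Dbx1, Sox21, which pushes progenitors toward neurons, was at 0.167 ± 0.0463 CPM in MEF, 200.1 ± 10.4 in iGABA and 8.03 ± 1.29 in GAD67. Skor2, a corepressor of Purkinje cells and dorsal horn neurons, was at 0.0101 ± 0.0174 CPM in MEF, 8.2 ± 1.39 in iGABA and 0.0259 ± 0.0255 in GAD67. The members below were Bhlhe22, Lhx2 and Isl1. Lhx2, a factor of forebrain and spinal neurons, was at 4.42 ± 0.304 CPM in MEF, 0.454 ± 0.108 in iGABA and 12.2 ± 3.91 in GAD67. Isl1, a factor of motor and striatal neurons, was at 1.81 ± 0.262 CPM in MEF, 0.25 ± 0.0735 in iGABA and 64.9 ± 8.25 in GAD67. The markers of neurons contacting the cerebrospinal fluid did not follow Pkd2l1 as a set. Of 9 tested, Pkd2l1, Gata2 and Myo3b were above. Gata2, a zinc finger factor of these cells, was at 2.08 ± 0.0323 CPM in MEF, 49.4 ± 6.15 in iGABA and 0.284 ± 0.0727 in GAD67. Myo3b, a myosin of cell protrusions, was at 0.0201 ± 0.0349 CPM in MEF, 14.4 ± 1.75 in iGABA and 4.4 ± 0.725 in GAD67. Below, Tal1, a defining factor, was at 0 counts in iGABA against 69 over MEF and 32 over GAD67, at least 28.9-fold and 10.9-fold lower. P2rx2, at 1.21 ± 0.292 CPM in MEF, 0.904 ± 0.0363 in iGABA and 2.31 ± 0.952 in GAD67, was below by order alone, since edgeR did not call it against MEF and it was no longer outside with library-size scaling.

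Factors of the ventral forebrain, where cortical interneurons arise, were more often below all 6 libraries than above. Of 27 tested, 3 were above (11.1%) and 8 below (29.6%), or 3 and 5 with library-size scaling. The list as a whole lay between the end states. It summed to 1190 to 1370 CPM in iGABA, 299 to 354 in MEF and 6340 to 6780 in GAD67. Its median log2 difference was 0.30 from MEF and -4.28 from GAD67. Those above were Gsx1, Gsx2 and Pou3f1. Gsx2 was at 0 ± 0 CPM in MEF, 67.8 ± 5.91 in iGABA and 1.82 ± 0.177 in GAD67, at least 2040.0-fold over MEF, where it had 0 counts. Pou3f1 was at 0.334 ± 0.0814 CPM in MEF, 240.0 ± 17.7 in iGABA and 87.5 ± 4.64 in GAD67. Gsx genes act in dividing progenitors and are shut off as interneurons leave. Lhx8, Maf, Npas3, Pou3f3, Pou3f4, Sox6 and Sp9 were among those below. Pou3f3, a POU factor of cortical and ventral progenitors, was at 3, 3.45 and 2.81 CPM in MEF, 0.742, 1.05 and 0.781 CPM in iGABA and 309.5, 304 and 328 CPM in GAD67. Npas3 was at 5.86 ± 0.336 CPM in MEF, 2.58 ± 0.371 in iGABA and 69.1 ± 12.6 in GAD67. In both, iGABA was under even the fibroblasts. For glutamatergic cortical neurons 2 of 15 were above and 4 below. Eomes, a factor of intermediate progenitors of excitatory neurons and a T-box factor of natural killer cells, was at 1.01 ± 0.183 CPM in MEF, 273 ± 5.85 in iGABA and 6.98 ± 2.13 in GAD67. Slc17a7, a vesicular glutamate transporter, was at 0.861 ± 0.0984 CPM in MEF, 1.25 ± 0.176 in iGABA and 0.412 ± 0.0855 in GAD67. Slc17a6, the other such transporter, was at 1.06 ± 0.034 CPM in MEF, 0.098 ± 0.0421 in iGABA and 1.67 ± 0.382 in GAD67.

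Peptide receptors and cargo had members outside in both directions. Of 54 listed neuropeptide receptors 36 were tested, of which 12 were above (33.3%) and 5 below. Members near 0 in both other groups, such as Prlhr and Ntsr2, were tested through iGABA, which favours the share above. The median log2 difference of the list was 3.32 from MEF and -0.09 from GAD67. Beyond Prlhr and Ntsr2, the neuropeptide Y receptor Npy2r was at 1.72, 1.61 and 1.6 CPM in MEF, 149, 134 and 144 CPM in iGABA and 2.43, 2.6 and 2.09 CPM in GAD67. All iGABA libraries were far above the other 6, which did not reach 3 CPM. The somatostatin receptor Sstr5 was at 0.0201 ± 0.0349 CPM in MEF, 22.4 ± 4.06 in iGABA and 0.0979 ± 0.0302 in GAD67. Sstr4, of the same family, was below at 1.19 ± 0.355 CPM in MEF, 0.0961 ± 0.00262 in iGABA and 1.17 ± 0.344 in GAD67. Npy1r, of the Y receptor family, was below at 1.48 ± 0.33 CPM in MEF, 0.55 ± 0.357 in iGABA and 7.6 ± 1.18 in GAD67. Among 33 peptides and granule proteins 12 were above and 5 below. Their median log2 difference was 3.20 from MEF and -0.05 from GAD67. The list summed to 1260 to 1360 CPM in iGABA, within the 1190 to 1390 in GAD67 and over the 773 to 856 in MEF. The thyrotropin-releasing hormone gene Trh was at 0.0732, 0 and 0.0604 CPM in MEF, 18.3, 19.9 and 19.4 CPM in iGABA and 0.766, 0.742 and 0.593 CPM in GAD67. The granin-type cargo gene Scg2 was at 2.93 ± 0.393 CPM in MEF, 132 ± 14 in iGABA and 5.21 ± 1.67 in GAD67. Vgf, of the same kind, was at 2.89 ± 0.086 CPM in MEF, 110.3 ± 5.71 in iGABA and 4.02 ± 1.23 in GAD67. The processing protease Pcsk1 was at 0.104 ± 0.101 CPM in MEF, 37.3 ± 3.14 in iGABA and 5.85 ± 1.07 in GAD67. These 3 genes were above. The enzymes that trim and amidate most peptides were below. Cpe was at 440.2 ± 24.8 CPM in MEF, 72.6 ± 1.69 in iGABA and 362 ± 26.1 in GAD67. Pam was at 169 ± 9.74 CPM in MEF, 29.3 ± 1.79 in iGABA and 90.3 ± 3.04 in GAD67. The peptide genes Cck and Tac1 were below as well, Cck at 0.484 ± 0.0785 CPM in MEF, 0.0318 ± 0.0551 in iGABA and 2.84 ± 0.505 in GAD67. Tac1, of the tachykinins, was at 1.13 ± 0.389 CPM in MEF, 0.2 ± 0.0581 in iGABA and 1.59 ± 0.611 in GAD67.

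Of 33 presynaptic genes 12 were above (36.4%) and 1 below, and the list summed to 4530.0 to 4710.0 CPM in iGABA against 3640.0 to 3960.0 in GAD67 and 490.0 to 529 in MEF. The fast calcium sensor Syt2 was at 0.11, 0.0329 and 0.0604 CPM in MEF, 62, 54.2 and 67.6 CPM in iGABA and 0.485, 1.03 and 0.565 CPM in GAD67. Syt7, the slow sensor, was at 2.39 ± 0.528 CPM in MEF, 364 ± 6.82 in iGABA and 57.9 ± 12.7 in GAD67. The complexin Cplx2 was at 16.7 ± 2.75 CPM in MEF, 1043 ± 13.4 in iGABA and 269 ± 48.7 in GAD67. The vesicle protein Syp was at 0.474 ± 0.0431 CPM in MEF, 217 ± 26 in iGABA and 94.7 ± 4.28 in GAD67. Rims1, a scaffold of the active zone that holds vesicles at the release site, was the member below, at 1.45 ± 0.521 CPM in MEF, 0.514 ± 0.101 in iGABA and 43.1 ± 5.26 in GAD67.

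Of 33 genes of GABA and glycine transmission 3 were above (9.09%) and 8 below (24.2%). Slc12a5, the chloride exporter KCC2 of mature neurons, was at 1.06, 1.38 and 0.876 CPM in MEF, 33, 35.9 and 34.2 CPM in iGABA and 22.8, 25.3 and 15.2 CPM in GAD67. Slc12a2, the chloride importer NKCC1 of immature neurons, was at 106, 111 and 108 CPM in MEF, 19, 19.5 and 19.2 CPM in iGABA and 64.8, 61.1 and 73.9 CPM in GAD67. For this pair of opposite transporters iGABA was above and below all 6 libraries. Aldh5a1, which breaks down GABA, was at 15.8 ± 1.46 CPM in MEF, 96.7 ± 0.898 in iGABA and 38 ± 5.34 in GAD67. The glycine transporter Slc6a9 was at 47.6 ± 1.86 CPM in MEF, 73.1 ± 1.21 in iGABA and 2.84 ± 1.09 in GAD67. Among those below were the subunits of GABA type A receptors Gabra3, Gabra4 and Gabrb2, the glycine receptor subunit Glrb and the auxiliary subunits Kctd8 and Kctd12b of GABA type B receptors. Glrb was at 35 ± 1.85 CPM in MEF, 3.73 ± 0.486 in iGABA and 14.6 ± 0.874 in GAD67. Gabra4 was at 2.78 ± 0.0559 CPM in MEF, 0.0475 ± 0.0401 in iGABA and 1.45 ± 0.305 in GAD67. The synthesis genes lay between the end states, Gad1 as given and Gad2 at 0.134 ± 0.0944 CPM in MEF, 9.44 ± 1.05 in iGABA and 514 ± 34.4 in GAD67.

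Receptors and channels were mixed. Of 22 nicotinic, serotonin and purine receptors 4 were above (18.2%) and 1 below (4.55%), against 20.7% and 15.8% of all genes tested. Chrna4, the neuronal nicotinic subunit, was at 0.558 ± 0.157 CPM in MEF, 156 ± 14.2 in iGABA and 4.46 ± 0.356 in GAD67. Htr3a, the serotonin-gated channel of a cortical interneuron class, was at 1.1 ± 0.0722 CPM in MEF, 355 ± 6.16 in iGABA and 100.9 ± 7.19 in GAD67. The muscle-type subunits Chrnb1 and Chrnd were above too, at 9.67 ± 0.147 and 8.29 ± 1.64 CPM in iGABA. Among 50 voltage-gated channel genes 11 were above (22.0%) and 12 below (24.0%), or 12 and 9 by library size. With TMM the share above was near the 20.7% of all genes tested, and the share below was over their 15.8%. Kcnc1, a fast potassium channel of interneurons, was at 0.751 ± 0.259 CPM in MEF, 500.4 ± 21.5 in iGABA and 137 ± 5.96 in GAD67. Kcnt1, a sodium-activated potassium channel, was at 0.639 ± 0.0974 CPM in MEF, 318 ± 5.14 in iGABA and 31.9 ± 5.49 in GAD67. The pacemaker channel Hcn2 was at 2.58 ± 0.47 CPM in MEF, 63.5 ± 1.75 in iGABA and 9.83 ± 1.63 in GAD67. The T-type calcium channels split. Cacna1i was above at 0.302 ± 0.0808 CPM in MEF, 82.3 ± 3.05 in iGABA and 7.62 ± 0.603 in GAD67. Cacna1g was below at 149 ± 17.4 CPM in MEF, 8.84 ± 2.75 in iGABA and 72.2 ± 5.2 in GAD67. Of the auxiliary calcium channel subunits, Cacnb2, Cacnb3, Cacnb4 and Cacna2d3 were below, Cacna2d2 was above, and Cacna2d1, Cacng2, Cacng4 and Cacng5 were not outside. Cacnb4 was at 3.72 ± 0.583 CPM in MEF, 0.292 ± 0.116 in iGABA and 98.2 ± 25.4 in GAD67. Cacnb2 was at 10.3 ± 0.437 CPM in MEF, 0.4 ± 0.172 in iGABA and 10.9 ± 0.683 in GAD67.

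The genes farthest below were shared by fibroblasts and interneurons and nearly lost in the converted cells. Among genes with a mean of at least 10 CPM in both other groups the 15 with the widest gap were Mef2c, Pcdh9, Scube3, B3gnt5, Rftn1, Flrt2, Kcnk2, Robo2, Foxp2, Csrp2, Fat4, Cdc42ep3, Cdh8, Lrrc75b and Cdk14. iGABA libraries ran from 0.215 to 6.41 CPM over them, MEF from 11.8 to 251 and GAD67 from 16.7 to 310.0.

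Mef2c (ENSMUSG00000005583, chromosome 13, 83504034 to 83667079), a MADS-box factor of muscle, neural crest and cortical interneurons, was at 31.7, 34.5 and 32.7 CPM in MEF, 0.915, 0.406 and 0.5 CPM in iGABA and 210.2, 238 and 173 CPM in GAD67. The log2 difference was -5.74 ± 0.20 (SE) from MEF and -8.39 ± 0.19 from GAD67. Pcdh9 (ENSMUSG00000055421, chromosome 14, 93015512 to 93888732), a protocadherin, was at 15.8, 15.7 and 14.3 CPM in MEF, 0.371, 0.215 and 0.344 CPM in iGABA and 50.9, 51.1 and 47 CPM in GAD67. Robo2 (ENSMUSG00000052516, chromosome 16, 73892306 to 74411825), a receptor of Slit repellents, was at 70.9, 75.5 and 71.7 CPM in MEF, 3.56, 3.44 and 3.31 CPM in iGABA and 305, 299 and 309.8 CPM in GAD67. All 3 had GAD67 libraries above MEF libraries and iGABA libraries under both, with gaps of 31.3, 30.7 and 19.4 times. Foxp2, a forkhead factor of striatal and deep cortical neurons, was at 33.7 ± 1.41 CPM in MEF, 1.36 ± 0.195 in iGABA and 173 ± 6.95 in GAD67. Flrt2, an adhesion molecule that binds Unc5 and guides migration, was at 77.7 ± 3.51 CPM in MEF, 2.51 ± 0.88 in iGABA and 212 ± 4.8 in GAD67. Kcnk2, the mechanosensitive potassium channel TREK-1, was at 37.1 ± 2.81 CPM in MEF, 1.32 ± 0.295 in iGABA and 52.4 ± 2.59 in GAD67. Rftn1 was at 14.5 ± 0.565 CPM in MEF, 0.346 ± 0.119 in iGABA and 17 ± 0.465 in GAD67. For others the fibroblast level was the higher of the 2. Fat4, a giant cadherin of planar polarity, was at 198 ± 57 CPM in MEF, 2.61 ± 0.457 in iGABA and 61.6 ± 3.24 in GAD67. Csrp2, an actin-binding LIM protein, was at 115 ± 5.88 CPM in MEF, 1.17 ± 0.227 in iGABA and 29.7 ± 0.903 in GAD67. Cdc42ep3, an effector of Cdc42, was at 126 ± 5.97 CPM in MEF, 2.67 ± 0.392 in iGABA and 55.1 ± 1.1 in GAD67.

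Genes of guidance and migration were more often below than above. Of 50 tested, 21 were below (42%) and 6 above (12%), or 17 and 10 by library size. Receptors of Slit, netrin and ephrin signals were divided. Robo1, Robo2, Unc5c, Epha3, Epha7 and Ephb3 were below, Ephb1, Unc5a and Unc5b above, and Dcc, Epha4, Epha5, Ephb2 and Unc5d not outside. The netrin receptor Unc5c was at 37.1, 40.8 and 33.2 CPM in MEF, 1.21, 0.907 and 1.06 CPM in iGABA and 23.1, 18.2 and 22.5 CPM in GAD67. The ephrin receptor Epha3 was at 109.7 ± 4.39 CPM in MEF, 4.15 ± 0.108 in iGABA and 46.2 ± 8.85 in GAD67. Epha7, of the same family, was at 28.5 ± 0.297 CPM in MEF, 3.09 ± 0.593 in iGABA and 60.9 ± 10.2 in GAD67. Ackr3 and Cxcr4, the chemokine receptors of migrating interneurons, Erbb4, their neuregulin receptor, and Reln, the layering signal, were also below. Of the Unc5 genes above, Unc5a was at 0.59 ± 0.0912 CPM in MEF, 81.7 ± 4.1 in iGABA and 15.9 ± 1.25 in GAD67. Unc5b was at 322 ± 5.02 CPM in MEF, 546 ± 8.88 in iGABA and 10.1 ± 0.643 in GAD67. The semaphorin receptor Plxna2 was above at 28.7 ± 2.95 CPM in MEF, 769 ± 6.37 in iGABA and 594 ± 18.9 in GAD67.

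In the list of Nfi, Ebf, Meis, Pbx, Zeb and Tcf factors, which many neurons and mesenchymal cells use as they mature, 12 of 28 were below (42.9%) and 4 above. Zeb2, a repressor needed for interneurons to reach the cortex and for mesenchymal states, was at 83.4, 86.7 and 83 CPM in MEF, 10.8, 8.6 and 11.8 CPM in iGABA and 522, 459.5 and 625 CPM in GAD67. The homeobox cofactors Pbx3 and Meis1 and the factor Nfia were below. Pbx3 was at 44.8 ± 1.01 CPM in MEF, 11.8 ± 0.508 in iGABA and 274 ± 22.2 in GAD67. Meis1 was at 45.4 ± 2.78 CPM in MEF, 12.8 ± 0.566 in iGABA and 84.6 ± 5.9 in GAD67. Nfia was at 84.4 ± 4.85 CPM in MEF, 30.8 ± 2.19 in iGABA and 106 ± 9.43 in GAD67. The members above were Pbx2, Pbx4, Tcf3 and Ebf3. Ebf3 was at 34.6 ± 1.11 CPM in MEF, 37.4 ± 1.06 in iGABA and 0.599 ± 0.223 in GAD67. It was not called against MEF (edgeR adjusted p = 0.283) and was no longer outside with DESeq2 size factors.

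Genes of energy metabolism stood above in several lists. Of the 13 protein genes of the mitochondrial genome 12 were above (92.3%) and 0 below. mt-Nd5 was at 855, 728 and 746 CPM in MEF, 5853, 5422 and 5848 CPM in iGABA and 1258, 1225 and 1415 CPM in GAD67. mt-Nd2 was at 387 ± 23.7 CPM in MEF, 2934 ± 134 in iGABA and 909.6 ± 173 in GAD67. These genes have near-identical copies in the nuclear genome with which reads can be shared, so their levels are uncertain, and mt-Atp6 was at only 9.09 ± 0.614 CPM in iGABA. The exception, mt-Nd1, at 585 ± 35.3 CPM in MEF, 1654 ± 40.7 in iGABA and 1699.6 ± 112 in GAD67, was above MEF and not called against GAD67 (edgeR adjusted p = 0.604). Of 35 nuclear respiratory chain genes 15 were above (42.9%) and 0 below with TMM, and 33 were above by library size, so this count rests on the scaling. Their differences were small. Cyc1 was at 79.7 ± 3.41 CPM in MEF, 153 ± 3.08 in iGABA and 105 ± 3.75 in GAD67. Ndufs1 was at 75 ± 3.97 CPM in MEF, 126 ± 4.02 in iGABA and 97.1 ± 3.44 in GAD67. In glycolysis 10 of 21 were above and 1 below. Aldoc, the brain aldolase, was at 18.8, 22.6 and 21.4 CPM in MEF, 170.3, 181 and 173 CPM in iGABA and 6.36, 6.44 and 5.84 CPM in GAD67. The neuronal enolase Eno2 was at 69.3 ± 6.36 CPM in MEF, 254 ± 15.9 in iGABA and 35.9 ± 5.45 in GAD67. The hexokinase Hk1 was at 118 ± 6.66 CPM in MEF, 278 ± 7.24 in iGABA and 119 ± 11.1 in GAD67. Pfkfb3, the enzyme that drives glycolysis in growing cells, was below at 65.1 ± 0.624 CPM in MEF, 14.7 ± 1.81 in iGABA and 87.6 ± 3.71 in GAD67.

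Of 16 tested fat genes 5 were above (31.2%) and 1 below, and the median log2 difference from MEF was -0.15. The central fat genes Ucp1, Pparg, Cebpa, Fabp4, Plin4 and Dio2 were not outside. With Cidea and Cox8b stood Prdm16, Cox7a1 and Ppargc1a, a regulator of mitochondrial genes. Prdm16, the brown fat regulator that is also a neural progenitor factor, was at 5.81 ± 0.412 CPM in MEF, 199.6 ± 2.84 in iGABA and 10.4 ± 1.26 in GAD67. Cox7a1, a cytochrome oxidase subunit, was at 0.967 ± 0.384 CPM in MEF, 17.8 ± 1.23 in iGABA and 0.657 ± 0.103 in GAD67. Acaca, of fatty acid synthesis, at 35.6 ± 4.89 CPM in MEF, 26.6 ± 0.714 in iGABA and 36.4 ± 3.79 in GAD67, was below with TMM and no longer outside by library size. In cholesterol synthesis 6 of 25 were above (24.0%) and 2 below (8.0%), against 20.7% and 15.8% of all genes tested. Tm7sf2 was at 17.1 ± 1.28 CPM in MEF, 118 ± 5.9 in iGABA and 37.3 ± 0.222 in GAD67. Dhcr7 was at 70 ± 3.36 CPM in MEF, 135 ± 8.09 in iGABA and 32.7 ± 3.11 in GAD67. Both are sterol reductases. Acat2, below with TMM, was not outside by library size.

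Stress lists gave counts nearer the background. In the integrated stress and unfolded protein response 9 of 32 were above (28.1%) and 0 below. The arginine transporter Slc7a3 was at 35, 37 and 40.5 CPM in MEF, 365, 401 and 329 CPM in iGABA and 1.2, 1.17 and 0.903 CPM in GAD67. Ddit4, an inhibitor of mTOR signalling, was at 103 ± 5.66 CPM in MEF, 262 ± 27.9 in iGABA and 77.7 ± 3.48 in GAD67. The list summed to 3670.0 to 3760.0 CPM in iGABA, between GAD67 and MEF. In the p53 response 3 of 22 were above and 4 below, or 7 and 2 by library size. The cell cycle inhibitor Cdkn1a was at 339 ± 14.4 CPM in MEF, 534 ± 18.1 in iGABA and 6.59 ± 1.93 in GAD67. The kinase Plk2 was below at 228 ± 6.95 CPM in MEF, 31 ± 1.81 in iGABA and 104 ± 17.3 in GAD67. In the antioxidant list 4 of 22 were above and 2 below. The mitochondrial superoxide dismutase Sod2 was above at 35.3 ± 1.7 CPM in MEF, 155 ± 3.17 in iGABA and 58.1 ± 0.459 in GAD67. The catalase gene Cat was below at 73.6 ± 4.15 CPM in MEF, 28.2 ± 0.633 in iGABA and 64 ± 6.84 in GAD67. Among immediate early genes 4 of 27 were above and 3 below, or 8 and 1 by library size. Arc, of synaptic plasticity, was at 2.57 ± 0.102 CPM in MEF, 89.6 ± 7.51 in iGABA and 1.38 ± 0.36 in GAD67. The nuclear receptor Nr4a3 was at 8.79 ± 0.582 CPM in MEF, 220.0 ± 10.8 in iGABA and 3.81 ± 0.161 in GAD67.

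In the cell cycle list 6 of 36 were above (16.7%) and 4 below (11.1%), near the shares of all genes. E2f2, a factor of the entry into S phase, was at 1.8 ± 0.424 CPM in MEF, 62.8 ± 0.116 in iGABA and 6.7 ± 1.1 in GAD67. Mcm2, of the replicative helicase, was at 42.7 ± 1.14 CPM in MEF, 104 ± 7.55 in iGABA and 14.9 ± 1.69 in GAD67. Mcm6, of the same helicase, was below at 65.5 ± 2.45 CPM in MEF, 31 ± 2.37 in iGABA and 44.9 ± 2.21 in GAD67. Cdk6, which drives G1, was below at 22.2 ± 3.33 CPM in MEF, 0.587 ± 0.319 in iGABA and 2.35 ± 0.285 in GAD67. Among chromatin genes, Dnmt3b, which lays down new DNA methylation in early embryos, was at 4.83, 4.24 and 3.38 CPM in MEF, 252, 275 and 239 CPM in iGABA and 7.92, 8.08 and 9.37 CPM in GAD67. All 3 iGABA libraries were above the highest other library, of GAD67. In that list of 30, 7 were above (23.3%) and 4 below (13.3%), near the shares of all genes. Rnf2, of Polycomb complex 1, was below at 127 ± 5.82 CPM in MEF, 43.4 ± 0.835 in iGABA and 105 ± 3.46 in GAD67. Eed, of complex 2, was below at 56.4 ± 1.27 CPM in MEF, 27.4 ± 1.31 in iGABA and 33.2 ± 2.37 in GAD67. Eed and Ezh2 were no longer outside by library size. Among 32 imprinted genes 8 were above and 4 below. Dlk1, a Notch-like ligand, was at 1419.6 ± 69 CPM in MEF, 6045 ± 102 in iGABA and 15.1 ± 1.87 in GAD67. Its neighbour Rtl1, a retrotransposon-derived gene, was at 0.182 ± 0.0941 CPM in MEF, 20.4 ± 1.49 in iGABA and 0.271 ± 0.133 in GAD67. Peg3 was at 664 ± 61.9 CPM in MEF, 2341 ± 71.2 in iGABA and 258 ± 14.3 in GAD67. Dio3, of the same imprinted cluster as Dlk1 and Rtl1, was below at 1.48 ± 0.208 CPM in MEF, 0.101 ± 0.0543 in iGABA and 3.46 ± 0.134 in GAD67. Rtl1 has an antisense transcript, and the strand setting of the counting is not given in the sources used here.

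Markers of other cell types were checked for the whole list in each case. In the oligodendrocyte list 3 of 10 were above and 0 below. Mobp was among them. Cnp, a myelin-associated enzyme, was at 13.2 ± 0.876 CPM in MEF, 165 ± 4.22 in iGABA and 12.2 ± 0.734 in GAD67. The list summed to 609 to 633 CPM in iGABA, 148 to 165 in MEF and 57.0 to 62.4 in GAD67, but Olig2 was at 0 counts in iGABA and Olig1 at 0.0401 ± 0.0496 CPM. Radial glia and astrocyte genes split, with 3 of 18 above and 6 below. Nes, an intermediate filament of progenitors, was above at 65.5 ± 3.5 CPM in MEF, 439 ± 31 in iGABA and 47.3 ± 4.66 in GAD67. Ptprz1, a phosphatase of radial glia, was below at 109 ± 1.58 CPM in MEF, 5.35 ± 0.783 in iGABA and 143 ± 6.25 in GAD67. Sox9 was below at 17.2 ± 1.47 CPM in MEF, 7.09 ± 1.36 in iGABA and 58.3 ± 16 in GAD67. Of 18 listed endocrine pancreas genes 5 were tested, of which 3 were above. Mafa, a factor of beta cells, was at 1.04 ± 0.171 CPM in MEF, 45.8 ± 3.66 in iGABA and 0.0718 ± 0.0181 in GAD67. The list summed to 100 to 104 CPM in iGABA, within the 99.6 to 133 in GAD67. Epithelial genes had 4 of 12 above. Epcam, an adhesion molecule, was at 0.491 ± 0.0966 CPM in MEF, 30.4 ± 0.956 in iGABA and 0.152 ± 0.0815 in GAD67. The list summed to 44.2 to 46.2 CPM in iGABA against 48.6 to 55.4 in MEF. Of 31 listed retinal genes 14 were tested, of which 6 were above and 2 below, or 3 and 0 with the stricter filter on low counts. The list summed to 24.6 to 27.9 CPM in iGABA, 19.9 to 22.0 in MEF and 4.18 to 5.57 in GAD67. Rom1, of photoreceptor discs, was at 3.31 ± 0.265 CPM in MEF, 14.1 ± 1.58 in iGABA and 0.645 ± 0.176 in GAD67. Of those below, Aipl1 was not called against MEF (edgeR adjusted p = 0.0689). Of 21 listed pluripotency genes 7 were tested, of which 3 were above and 1, Lin28b, below. The list summed to 49.2 to 54.5 CPM in iGABA, under the 86.3 to 88.0 in MEF. Tfcp2l1 was at 2.2 ± 0.446 CPM in MEF, 32.1 ± 0.681 in iGABA and 0.525 ± 0.0734 in GAD67. Esrrb was at 0.454 ± 0.156 CPM in MEF, 1.7 ± 0.134 in iGABA and 0.318 ± 0.0866 in GAD67. Lin28a was at 0 ± 0 CPM in MEF, 4.64 ± 0.673 in iGABA and 0.203 ± 0.152 in GAD67. The part of such cell types in these values was not tested.

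Microglia and macrophage genes were below in 11 of 17 and above in 0. They summed to 659 to 713 CPM in MEF, 12.1 to 14.0 in iGABA and 8.27 to 10.6 in GAD67, so the list total of iGABA was above that of GAD67 although 11 members were under it. Csf1r was at 25.4, 25.6 and 25.5 CPM in MEF, 0.0742, 0.0478 and 0.0313 CPM in iGABA and 0.434, 0.583 and 0.395 CPM in GAD67, and Cx3cr1 was at 0 counts in iGABA against 1077 over MEF and 57 over GAD67. Endothelial genes were below in 4 of 13. Flt1 was at 228 ± 7.99 CPM in MEF, 0.173 ± 0.0593 in iGABA and 5.17 ± 3.38 in GAD67, and the list summed to 21.0 to 71.7 CPM over the GAD67 libraries. Muscle genes were below in 7 of 32 and above in 0, Mef2c among them. The skeletal actin Acta1 was at 44.5 ± 1.02 CPM in MEF, 4.74 ± 0.302 in iGABA and 15.9 ± 0.983 in GAD67. Myl1, a myosin light chain, had 132 counts over MEF, 11 over GAD67 and 0 over iGABA. Red blood cell genes were outside in 0 of 6. Of 44 fibroblast and matrix genes 5 were below (11.4%), less than the 15.8% of all genes tested, and 0 above. Thbs1, an adhesive glycoprotein, was at 6778, 7595 and 7293 CPM in MEF, 36.7, 36.3 and 37 CPM in iGABA and 133, 118 and 148 CPM in GAD67. Fbln1 was at 444 ± 31.7 CPM in MEF, 6.52 ± 1.73 in iGABA and 22.2 ± 0.373 in GAD67. Tgfbi was at 274 ± 12.2 CPM in MEF, 0.59 ± 0.104 in iGABA and 3.55 ± 0.44 in GAD67. Vcan, a proteoglycan of both matrix and brain, was at 307 ± 32 CPM in MEF, 48.1 ± 2.28 in iGABA and 465 ± 32 in GAD67.

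**Figure D4:**
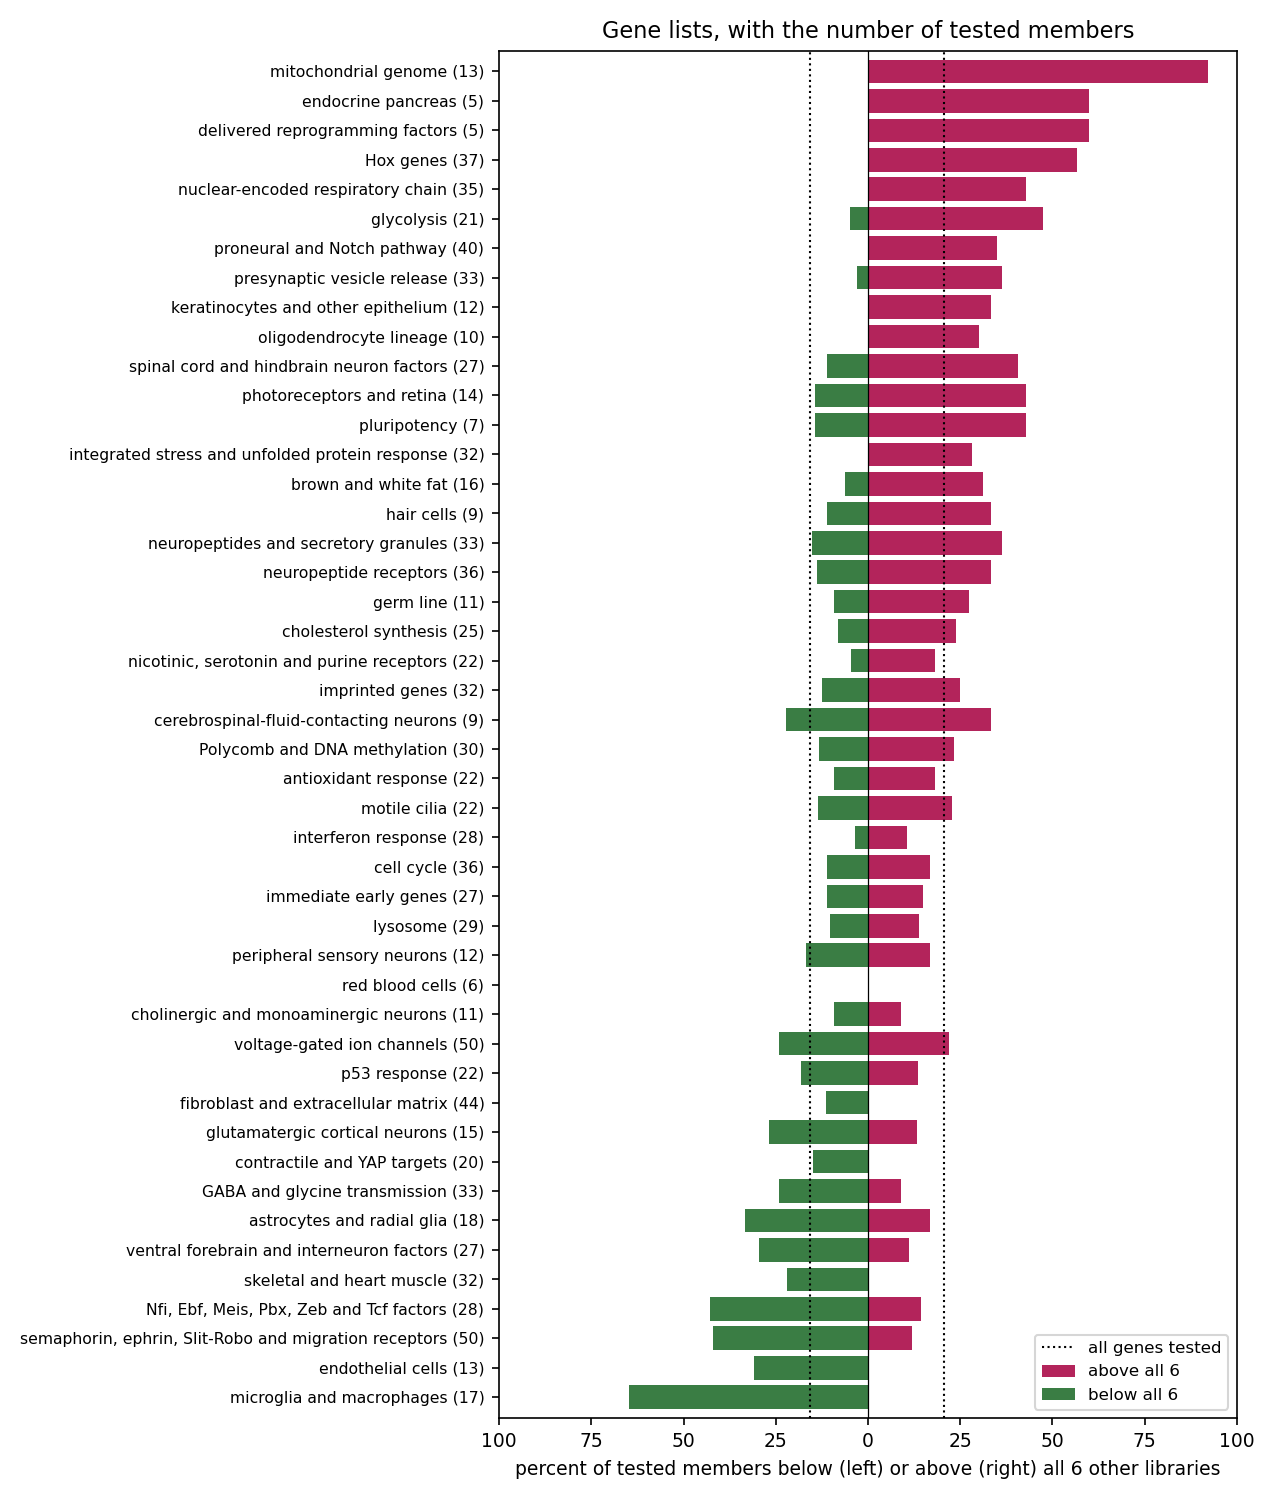
For 46 gene lists, the percent of tested members with every iGABA library above (right) or below (left) all 6 other libraries, with the number of tested members in brackets. Dotted lines mark the shares of all genes tested, 20.7% above and 15.8% below; the mitochondrial genome (92.3%) and Hox genes (56.8%) reach far to the right, and microglia genes (64.7%) and guidance receptors (42.0%) to the left.

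The lists were chosen with results of these data in view, so their counts describe and do not test. In every list, members that are low in both other groups entered the test through iGABA, which favours the share above. The median log2 difference of the mean contrast was 0.03 over all genes. It was 5.29 for Hox genes, 2.16 for the mitochondrial genome, 1.54 for proneural and Notch genes, 1.26 for neuropeptide receptors and 1.21 for presynaptic genes. It was -1.27 for guidance receptors, -1.44 for ventral forebrain factors, -0.75 for the Nfi to Tcf list and -5.42 for microglia genes. Medians against MEF and against GAD67, in turn, were 0.48 and 9.63 for Hox genes and 3.32 and -0.09 for neuropeptide receptors. For presynaptic genes they were 3.65 and -0.19, and for ventral forebrain factors 0.30 and -4.28. The typical member of a list thus need not lie outside both groups. Both medians were positive for the mitochondrial genome, Hox genes and proneural and Notch genes, among other lists. Both were negative for guidance receptors, the Nfi to Tcf list and microglia genes, among others. The 2 medians of a list can come from different members. Of proneural and Notch genes 14 of 40 were above, of guidance receptors 21 of 50 below and of the Nfi to Tcf list 12 of 28 below.

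Genes below all 6 libraries were long. A gene's span, from the first to the last base of its annotated transcripts, was not used to choose members. Among 14880 tested protein-coding genes the median span was 23.8 kb, against 17.7 kb for those above and 35.6 kb for those below. With a gap of at least 4 times it was 17.5 kb for 447 genes above and 99.7 kb for 207 genes below. Of the 15 genes farthest below 9 spanned over 100 kb, Pcdh9 (873 kb), Cdk14 (617 kb) and Foxp2 (541 kb) among them, and of the 15 farthest above 0 did. Of the 14880 genes, 1286 spanned 100 to 200 kb and 881 over 200 kb. The 15 below had to reach 10 CPM in both other groups and the 15 above in iGABA, so the 2 counts are of unlike sets. In classes of span the share below was higher at each step, from 10.5% of 1843 genes up to 5 kb to 28.8% of 881 genes over 200 kb, while the share above was lower at each, from 29.0% to 12.6%. Neither other group had this pair of slopes. MEF libraries were above their 6 others in 30.3% of the shortest and 29.3% of the longest class and below in 28.4% and 33.5%. GAD67 libraries had the reverse order, above in 24.6% of the shortest and 46.2% of the longest and below in 35.4% and 19.3%. These are shares of genes, which are not independent, and no test was made of the differences between groups. Between the same classes the median log2 difference of iGABA went from 0.21 to -0.24 against MEF and from 0.42 to -0.96 against GAD67, 2 values that share the iGABA libraries, and that of GAD67 against MEF from -0.18 to 0.85. Among genes with a mean of at least 10 CPM over the groups, a check added after the data were seen, 12.2% of the shortest and 29.6% of the longest class were below and 26.9% and 13% above. In that set the median span was 109 kb for genes below with a gap of at least 4 times, but 26.1 kb both for those above and for all genes. By library size the shares below were 5.97% and 24.2% and the shares above 38.8% and 16.3%.

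**Figure D5:**
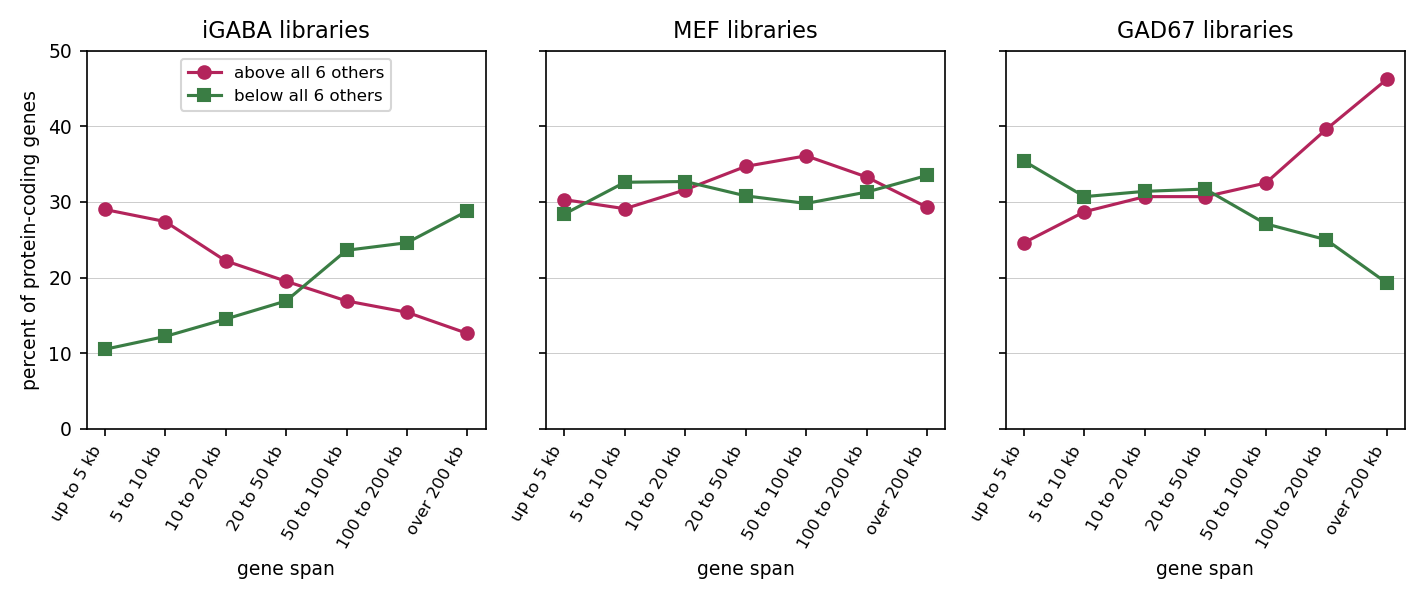
The percent of tested protein-coding genes above or below all 6 other libraries (y axis) by class of gene span (x axis), for iGABA, MEF and GAD67 libraries in turn. In iGABA the share below climbs from 10.5% to 28.8% and the share above falls from 29.0% to 12.6%, and in GAD67 libraries the share above climbs from 24.6% to 46.2%.

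Noncoding classes differed among themselves. Of 312 tested antisense genes 35.9% were above and 4.81% below, of 180 lincRNA genes 32.8% and 4.44%, and of 231 genes annotated as processed transcripts 32.0% and 7.79%, against 21.1% and 17.4% of protein-coding genes. Of 224 snoRNA genes 10.7% were above and 4.91% below, and of 192 miRNA genes 16.7% and 6.25%. Processed pseudogenes, whose reads may belong to their parent genes, were above in 9.60% of 1375 and below in 10.1%. Without the strand setting of the counting, reads of an antisense gene and of its partner cannot be told apart. In every class, genes that are low in both other groups entered the test through iGABA, which favours the share above. A gene with hardly any counts in another group also leaves iGABA little room to lie below it. The part of expression level and of scaling in the differences from protein-coding genes was not tested.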

How the data were processed

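RNA of 3 MEF, 3 iGABA and 3 GAD67 mouse samples was sequenced from strand-marking libraries. The authors deposited 1 table of raw counts per gene, and BWA 0.7.2, featureCounts, DESeq 1.10.1 and mm10 are named in the submitters' processing notes. The sources used here do not give the annotation or the strand setting. Of 37224 listed genes 18085 passed edgeR's expression filter (minimum count 10, total 15). CPM were scaled by TMM, and edgeR 4.0.16 (quasi-likelihood test, R 4.3.3) was fitted to all 9 libraries and all tested genes, with Benjamini-Hochberg adjusted p under 0.05 as a call. Limma 3.58.1 was loaded with edgeR, and DESeq2 1.42.0 was run as an alternative. A count of 0 allows up to 3 counts, 0.0770 to 0.109 CPM by library. These limits cover counting error only.

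A gene was a member when all 3 iGABA libraries lay above, or below, the 6 others. Named genes were the 15 with the widest gap in each direction (mean of at least 10 CPM in iGABA, or in both other groups, and called against both groups, with an official symbol above), the 10 highest of the genes seen in iGABA alone, the delivered factors, and up to 4 members above and 4 below with the widest gap in each list. Others named were chosen after their values were seen. The members and lists were chosen with earlier results of these data known. The fits were tested on simulated data. Alternatives were scaling, filters, the DESeq2 test, a minimum gap, the 6 other libraries as 1 group, and leaving out each library. Promoter sequences are from RefSeq. Results on some named genes are not reported here.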

Additional observations from a re-analysis of the deposited data

How the results depend on the processing

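With the 6 other libraries fitted as 1 group, edgeR called 1996 genes higher and 1687 lower in iGABA, because the difference between MEF and GAD67 then counts as spread. A gap of at least 1.5 times kept 1902 genes above and 1103 below. Scaling by library size gave 1742 genes below all 6 libraries, against 2861 with TMM, and 1661 called below both groups, against 2735. Leaving out 1 library at a time gave 3802 to 3964 genes above and 2931 to 3077 below, with fewer libraries to exceed. Under library-size scaling the share of protein-coding genes up to 5 kb was 38.8% above and 5.97% below, and over 200 kb 16.3% above and 24.2% below. With at least 10 CPM, an alternative added after the data were seen as that of span by library size was, it was 26.9% and 12.2% up to 5 kb. None of the 272 named genes reversed under any alternative run, and 16 of 270 named outside genes, all below, were no longer outside by library size. No paired analysis was made, because the labels do not say whether libraries of different groups share a cell preparation. Depth limits genes near 0, where a few counts decide the order of libraries.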
